A study of Mus musculus with 11 samples.

Results

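Water and electrolyte transport genes were followed in epithelial organoids of the small intestine, derived from Lgr5-EGFP-IRES-creERT2 mice. The 10 genes were chosen by name from the aquaporin, chloride, bicarbonate and sodium transport families, out of 37310 gene identifiers in the count tables. They are Aqp1, Aqp8, Aqp11, Cftr, Slc12a2, Slc26a3, Slc26a6, Slc4a4, Slc9a2 and Slc9a3. All 10 were found, each under 1 identifier, and all 10 passed the filter on low counts, which left 14172 genes for testing. Aqp8 passed it through its early libraries, since its late libraries held between 0 and 4 reads.

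Bulk RNA sequencing covered 11 libraries from 2 animals, mouse_283 and mouse_285. Every library carried the same genotype, in which a knock-in at the stem cell gene Lgr5 drives a green fluorescent protein and a tamoxifen-inducible Cre. No label names a tamoxifen treatment or a floxed allele, or says whether the knock-in is heterozygous. Early libraries came from passages 2, 3 and 4 of mouse_283 and passages 2 and 4 of mouse_285 (n = 5), and late libraries from passages 11, 12 and 13 of each animal (n = 6), with passages every 7 days. The protocol names mice of 4 and 24 months, but no label ties an age to an animal, so the difference between the animals cannot be told apart from age. The tissue label is small-intestinal epithelium throughout, while the protocol describes dissection of small intestine and colon. Libraries of an animal share its culture line, so p-values measure the spread between libraries of 2 animals and not the spread between animals.

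Intestinal epithelium secretes fluid by moving chloride into the lumen and absorbs fluid by taking up sodium with chloride. In secretion, the basolateral cotransporter Slc12a2 loads chloride into the cell and the apical channel Cftr releases it, along with bicarbonate that enters by way of Slc4a4. In absorption, the apical sodium/hydrogen exchangers Slc9a2 and Slc9a3 work beside the apical anion exchangers Slc26a3 and Slc26a6, and water follows through the cells, in part through aquaporins, and between them.

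Promoter windows from RefSeq (mouse build GRCm38.p6) were on hand for 8 of the 10 genes, Slc9a2 and Slc12a2 being without one. Each window is 300 bases long around an annotated start. Windows are shown for Aqp8, the gene whose level fell between the stages, and for Cftr and Slc26a3. Over the 11 libraries, the levels of Cftr and Slc26a3 varied most alike among the 10 genes (Pearson's r of log2 CPM 0.94). Without passages 3 and 4 of mouse_283 their r was 0.44, and other pairs were then more alike, such as Slc26a6 with Slc9a2 at 0.81. Capitals mark matches on either strand to the letters TATAAA of the TATA box, to CCAAT for the CCAAT box and to GGGCGG of the Sp1 box, and the sequences read 5′ to 3′ on the gene's strand, which is the plus strand for these 3 genes.
Aqp8 promoter, chr7:123462044-123462343: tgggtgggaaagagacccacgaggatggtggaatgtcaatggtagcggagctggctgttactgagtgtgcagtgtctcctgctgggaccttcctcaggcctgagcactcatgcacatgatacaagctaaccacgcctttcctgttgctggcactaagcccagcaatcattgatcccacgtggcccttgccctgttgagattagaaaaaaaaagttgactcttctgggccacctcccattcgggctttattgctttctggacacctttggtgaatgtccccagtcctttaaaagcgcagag
Cftr promoter, chr6:18170437-18170736: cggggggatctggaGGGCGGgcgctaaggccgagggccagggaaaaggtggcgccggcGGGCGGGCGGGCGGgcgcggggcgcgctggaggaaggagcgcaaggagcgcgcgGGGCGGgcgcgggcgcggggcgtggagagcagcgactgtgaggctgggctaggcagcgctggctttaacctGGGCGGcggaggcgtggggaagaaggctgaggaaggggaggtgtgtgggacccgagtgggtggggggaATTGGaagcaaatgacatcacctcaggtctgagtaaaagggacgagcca
Slc26a3 promoter, chr12:31437969-31438268: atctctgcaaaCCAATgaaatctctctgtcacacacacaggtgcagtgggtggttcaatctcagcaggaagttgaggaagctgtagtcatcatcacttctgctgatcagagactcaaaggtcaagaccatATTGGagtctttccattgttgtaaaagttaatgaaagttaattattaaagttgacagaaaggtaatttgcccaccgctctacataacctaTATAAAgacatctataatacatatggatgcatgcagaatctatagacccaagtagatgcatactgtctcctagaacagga

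The Aqp8 window held none of the 3 motifs and had a GC content of 52.0%, beside a median of 52.7% over 32851 windows of this length. The Cftr window, at 71.3% GC, held the Sp1 box 6 times, 3 of these overlapping, and the CCAAT box 1 time. The Slc26a3 window, at 39.3% GC, held the TATA box 1 time and the CCAAT box 2 times. Over all 32851 windows, 13.6% held the TATA box, 37.4% the CCAAT box and 35.7% the Sp1 box. Cftr and Slc26a3 thus shared the CCAAT box but differed in base composition and in the other motifs, and a match is a description of the letters only.

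Libraries held between 15114132 and 28949911 reads in genes. Passages 3 and 4 of mouse_283 stood apart in base composition: expression rose by 0.97 and 0.78 on the log2 scale per 10 points of gene GC content relative to the mean of all libraries, against -0.41 to 0.20 in the other 9. Epithelial identity was checked on 17 small-intestinal markers, all of which passed the filter and whose summed level was 8516 to 12792 in the early and 7250 to 8648 in the late libraries, in CPM, in which the reads of each library are scaled to a common total. Of the colon markers, Car1, Hoxd12 and Retnlb had no read in any library, and Hoxb13 and Ly6g6c had at most 1 read, whereas Prdm16 was at 35.2 to 64.8 CPM. The duodenal factors Gata4 and Pdx1 were at 224 to 344 and 3.91 to 63.2 CPM. Of the 5 ileal markers, Fabp6 had at most 1 read and Slc10a2 and Fgf15 were at most at 2.20 and 3.52 CPM, whereas Guca2a was at 51.2 to 173 and Osr2 at 0.0979 to 37.4 CPM.

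Levels below are normalised CPM, the CPM of reads in genes after edgeR's scaling between libraries. Late against early passage, edgeR's quasi-likelihood test with Benjamini-Hochberg adjustment over all tested genes, with the animal in the model, called 1 of the 10 genes, Aqp8, which fell. Among all tested genes the same test called 432 (3.05%), of which 100 were higher late (0.706%) and 332 lower (2.34%). No transport gene of the 10 was called higher. Because Aqp8 passed the filter only through the group in which it was high, its call and the order of its libraries describe that gene. They support nothing on the 10 as a group. With no filter on low counts the change of Aqp8 was -4.04 (adjusted p = 5.69e-07), in a fit that called 1819 of 23493 genes. That fit used the same Aqp8 counts, so it cannot lift this limit. A further 3 genes, Aqp1, Slc26a6 and Slc12a2, had an unadjusted p under 0.05 without passing the adjusted threshold. The log2 fold change was below 0 in 6 of the 10 genes with a median of -0.37, beside a median of -0.02 and 51.4% below 0 over all tested genes.

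**Figure D1:**
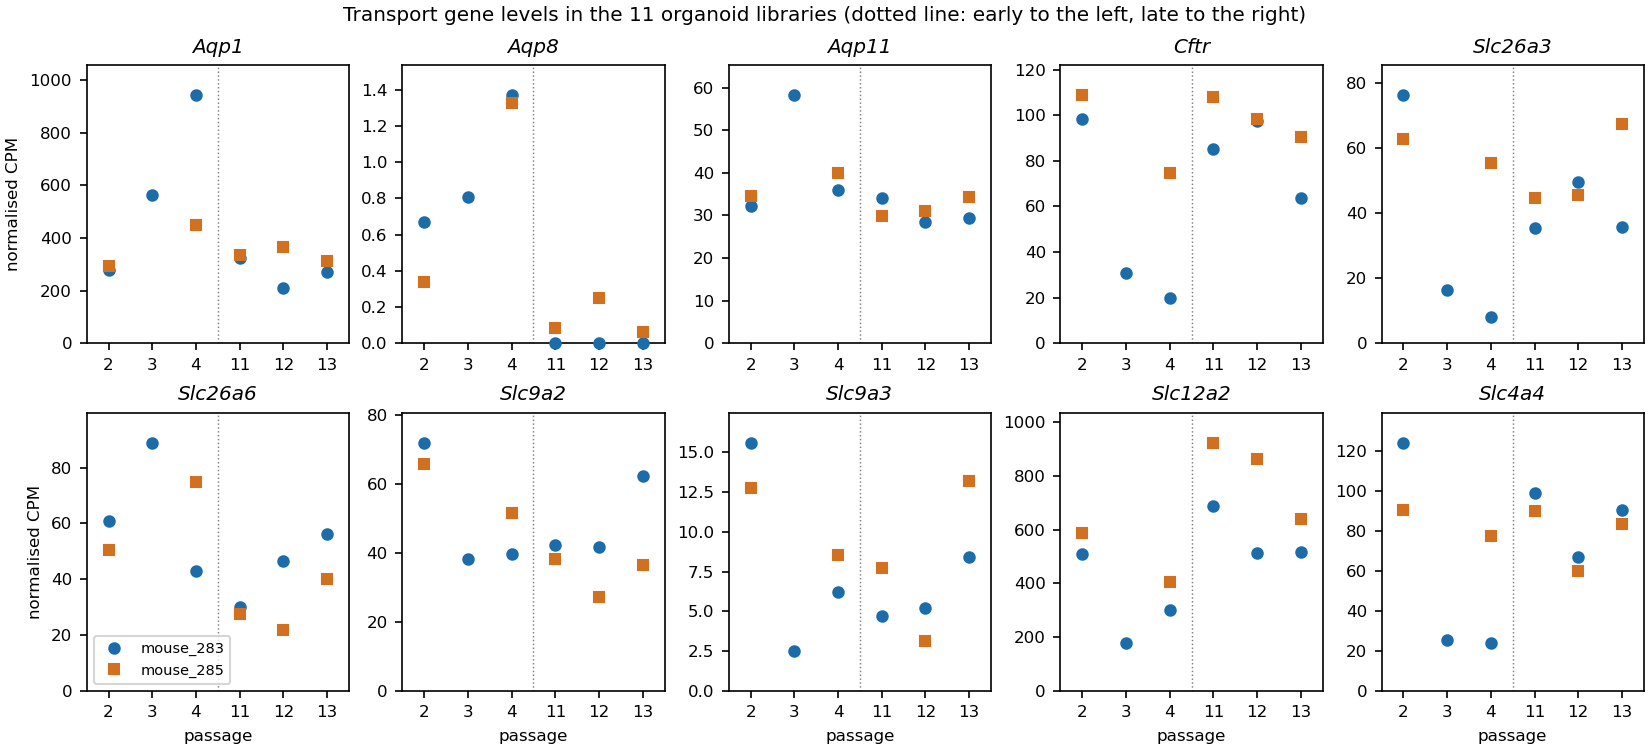
Normalised CPM (linear axes from 0) of the 10 transport genes against passage, with circles for mouse_283 and squares for mouse_285, 1 point per library. The 6 late libraries of Aqp8 lie at or under 0.250, below all 5 early ones, and passages 3 and 4 of mouse_283 lie low for Cftr, Slc26a3 and Slc4a4 and high for Aqp1.

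Among the aquaporins, Aqp8 is a channel for water, ammonia and hydrogen peroxide that is known from the surface epithelium of the colon. In mouse_283 it was at 0.671, 0.809 and 1.37 normalised CPM at passages 2, 3 and 4, from 11, 15 and 38 reads, and no read was found at passages 11, 12 and 13. In mouse_285 it was at 0.340 and 1.33 normalised CPM at passages 2 and 4, from 6 and 26 reads, and at 0.0838, 0.250 and 0.0620 at passages 11, 12 and 13, from 2, 4 and 1 reads. Every late library was below every early library, which was the case in 1 of the 10 genes and held in either direction in 5.72% of all tested genes. As Aqp8 passed the filter through its early libraries, this order describes that gene only. Of the reads in genes, 96 of 106805365 were from Aqp8 early and 7 of 121334571 late, an early level 15.6 times the late one (95% exact interval 7.28 to 39.8, counting error only).

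The fitted change of Aqp8 was -4.03 on the log2 scale (SE 0.76, adjusted p = 0.0146), and it was called with a correction for GC content and length as well (-3.81, adjusted p = 0.00788). With passages 3 and 4 of mouse_283 left out it was also called (-3.57, adjusted p = 0.0195). Leaving out passage 4 of mouse_285, the early library of that animal with the most Aqp8 reads, gave -4.05 with an adjusted p of 0.0806. By animal, 64 reads early stood against 0 of 68782717 late in mouse_283, which makes the late level at least 16.6-fold lower by the 95% exact interval, or 21.1-fold at a floor of 3 counts over the late group. In mouse_285, 32 reads stood against 7, a ratio of 6.47 (95% exact interval 2.81 to 17.4). The test within mouse_283 called Aqp8 (adjusted p = 0.0185), as it did 1.42% of all genes, and the call was lost on leaving out passage 11, 12 or 13 of that animal, with adjusted p-values of 0.0521, 0.0982 and 0.0756. Within mouse_285 the fitted change was -2.66 (SE 0.83, adjusted p = 0.623).

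Aqp8 was scarce even in its highest library, where 1.37 CPM compares with a floor of 0.105 CPM for 3 counts. In bulk RNA, fewer cells that hold a transcript and less of it per cell cannot be told apart. Beside the fall of Aqp8, the summed level of 14 enterocyte markers was 3711 to 5186 CPM early and 2567 to 3528 CPM late, without overlap. Of the 14, 4 were called lower late, beside 2.34% of all tested genes. Anpep, the most abundant of them, went from a mean of 1609 CPM early to 687 late. Alpi, Fabp1, Fabp2 and Enpep had a higher mean late, and the rest a lower one. The 8 markers of stem and proliferating cells summed to 907 to 2083 CPM early and 1309 to 2669 CPM late, and none of them passed the test. The part of these shifts in the result for Aqp8 was not tested.

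Aqp1, a water channel best known from red blood cells, endothelium and kidney tubules, was the most abundant aquaporin. In mouse_283 it was at 279, 564 and 944 normalised CPM at passages 2, 3 and 4, and in mouse_285 at 296 and 450.1 at passages 2 and 4. The late libraries ran from 210.0 to 366, with a median of 318. The ranges overlapped, because the passage 2 libraries of both animals lay among the late ones, and the early mean of 507 ± 271 (SD, n = 5) came mainly from passages 3 and 4.

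The change of Aqp1 was -0.71 (SE 0.31, adjusted p = 0.189). It came to -0.10 (SE 0.17, adjusted p = 0.774) without passages 3 and 4 of mouse_283 and to -0.38 (adjusted p = 0.331) with the GC correction. It was called without passage 2 of mouse_283 (-0.85, adjusted p = 0.0319), as were 4872 of 14052 genes. Leaving out passage 2 left passages 3 and 4 as the early libraries of mouse_283. With no filter on low counts it was called too (-0.70, adjusted p = 0.0307), as were 1819 of 23493 genes. Over all 11 libraries, the change was -1.15 (SE 0.37) within mouse_283 and -0.14 (SE 0.41) within mouse_285. The difference between these, 1.02 (SE 0.56), did not pass (adjusted p = 0.990). Markers of endothelium and red blood cells were low. The 8 endothelial markers summed to 1.36 to 2.68 CPM over all libraries. Among them Vwf was at 0.736 to 2.49 CPM and Pecam1 at 0.0468 to 0.749 CPM, while Kdr and Emcn had no read and Cdh5 at most 1. The 7 red blood cell markers found summed to at most 0.488 CPM. Which cells held Aqp1 was not tested.

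Aqp11, an aquaporin of intracellular membranes, showed the narrowest spread of the 10 genes. It was at 32.1, 58.2 and 36.0 normalised CPM in the early libraries of mouse_283 and at 34.5 and 39.9 in those of mouse_285, and the late libraries ran from 28.4 to 34.4 with a median of 30.4. All late libraries of mouse_285 lay below its early ones, and in mouse_283 passage 11 lay above passage 2. The change was -0.36 (SE 0.18, adjusted p = 0.237), or -0.93 (SE 0.32, adjusted p = 0.0902) with the GC correction and -0.16 (adjusted p = 0.523) without passages 3 and 4 of mouse_283.

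For chloride secretion, Slc12a2, the sodium/potassium/chloride cotransporter that loads chloride across the basolateral membrane, had the highest mean CPM of the 10 over all 11 libraries, at 557, although Aqp1 was higher in the early mean. In mouse_283 it was at 509, 179 and 303 normalised CPM at passages 2, 3 and 4 and at 688, 513 and 516 at passages 11, 12 and 13. In mouse_285 it was at 587 and 406 at passages 2 and 4 and at 925, 865 and 640 at passages 11, 12 and 13. In each animal every late library was above every early one, narrowly so in mouse_283, where passage 12 at 513 stood against passage 2 at 509. Slc12a2 was the 1 gene of the 10 with this order in both animals, which 3.99% of all tested genes had. Aqp8, which passed the filter through its early libraries, was the 1 gene with the opposite order in both animals, and 5.44% of all tested genes had that order.

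The means of Slc12a2 were 397 ± 162 early (SD, n = 5) and 691 ± 173 late (SD, n = 6), a change of 0.75 (SE 0.25, adjusted p = 0.113) that did not pass the test. It was 0.79 within mouse_283 and 0.71 within mouse_285, a difference of -0.09 (SE 0.51). Without passages 3 and 4 of mouse_283 it was 0.50 (SE 0.19, adjusted p = 0.152), and with the GC correction 0.34 (SE 0.16, adjusted p = 0.193). The test called it higher late without passage 2 of mouse_283 (0.97, adjusted p = 0.0145), in DESeq2's Wald test (0.76, adjusted p = 0.0363) and with no filter on low counts (0.80, adjusted p = 0.00896). In that order, these settings called 4872 of 14052, 1343 of 14149 and 1819 of 23493 genes.

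Cftr, the chloride and bicarbonate channel that cyclic AMP and cyclic GMP signalling opens, was at 98.3, 30.8 and 20.0 normalised CPM at passages 2, 3 and 4 of mouse_283. It was at 109 and 74.5 at passages 2 and 4 of mouse_285, and the late libraries ran from 63.5 to 108 with a median of 93.9. The passage 2 libraries thus lay within or above the late range, and only passages 3 and 4 of mouse_283 lay below the late range. The change was 0.45 (SE 0.34, adjusted p = 0.405) over all libraries and -0.03 (SE 0.17, adjusted p = 0.943) without these 2. With the GC correction it was 0.05 (SE 0.14). Without passage 2 of mouse_283 it was called higher late, at 0.85 (adjusted p = 0.0439), in a fit that called 4872 of 14052 genes. Exons of Cftr share 129 bases with the antisense gene Gm15592. Without strand, reads over these bases are set aside as ambiguous, so the Cftr values leave them out. The mean CPM from the added strand columns was 0.981 of the unstranded one for Cftr, against 0.933 to 0.940 for the other members.

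Of the anion exchangers, Slc26a3, the apical chloride/bicarbonate exchanger whose loss causes chloride-losing diarrhoea, varied most among the 10 genes apart from Aqp8. It was at 76.4, 16.4 and 7.98 normalised CPM at passages 2, 3 and 4 of mouse_283 and at 63.0 and 55.3 at passages 2 and 4 of mouse_285. Its late libraries ran from 35.5 to 67.4, with a median of 45.1. The highest and the lowest libraries were both early ones of mouse_283, 9.58-fold apart, and without passages 3 and 4 of that animal the range was 2.15-fold. The change was 0.07 (SE 0.44, adjusted p = 0.929), -0.47 (SE 0.19, adjusted p = 0.179) without those passages and -0.10 (SE 0.30) with the GC correction, so that its sign turned.

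Slc26a6, an apical exchanger of chloride for bicarbonate or oxalate, was at 60.9, 88.9 and 42.8 normalised CPM in the early libraries of mouse_283 and at 50.3 and 74.7 in those of mouse_285. The late libraries of mouse_283 were at 30.1, 46.7 and 56.1 and those of mouse_285 at 27.5, 21.7 and 40.1, in order of passage. In mouse_285 all late libraries were below the early ones, while the values of mouse_283 overlapped. The means were 63.5 ± 18.6 early and 37.0 ± 13.0 late, a change of -0.77 (SE 0.25, adjusted p = 0.113) that did not pass the test. It was -0.84 (SE 0.23, adjusted p = 0.0567) without passages 3 and 4 of mouse_283 and -0.57 (SE 0.23, adjusted p = 0.129) with the GC correction. Without passage 2 of mouse_283 it was called (-0.82, adjusted p = 0.0311), as were 4872 of 14052 genes. With no filter on low counts it was called as well (-0.73, adjusted p = 0.0263), as were 1819 of 23493 genes.

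Slc4a4, the sodium/bicarbonate cotransporter of the basolateral membrane, was at 124, 25.2 and 23.9 normalised CPM at passages 2, 3 and 4 of mouse_283. It was at 90.6 and 77.5 at passages 2 and 4 of mouse_285, and the late libraries ran from 59.9 to 99.1 with a median of 86.9. As for Cftr, passages 3 and 4 of mouse_283 lay below every other library, and the highest value was passage 2 of the same animal. The change was 0.26 (SE 0.39, adjusted p = 0.667) over all libraries and -0.27 (SE 0.17, adjusted p = 0.393) without these passages.

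Of the sodium/hydrogen exchangers, Slc9a2 was at 72.1, 38.3 and 39.9 normalised CPM in the early libraries of mouse_283 and at 66.0 and 51.5 in those of mouse_285. Its late libraries were at 42.5, 41.9 and 62.3 in mouse_283 and at 38.3, 27.3 and 36.6 in mouse_285. The late libraries of mouse_285 all lay below its early ones, and those of mouse_283 lay between its early ones. The change was -0.37 (SE 0.23, adjusted p = 0.313), with -0.04 (SE 0.29) in mouse_283 and -0.79 (SE 0.33, adjusted p = 0.820) in mouse_285. Without passages 3 and 4 of mouse_283 it was called lower late, at -0.69 (SE 0.17, adjusted p = 0.0308), in a fit that called 697 of 14630 genes. With the GC correction it was -0.26 (adjusted p = 0.445).

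Slc9a3, the exchanger that carries most of the sodium absorbed by the small intestine, was the least abundant member after Aqp8. It was at 15.6, 2.53 and 6.21 normalised CPM at passages 2, 3 and 4 of mouse_283 and at 12.7 and 8.53 at passages 2 and 4 of mouse_285. Late libraries ran from 3.12 to 13.2, with a median of 6.49. The passage 2 libraries of the 2 animals were the highest but for passage 13 of mouse_285, and the groups overlapped over most of their range. The change was -0.40 (SE 0.44, adjusted p = 0.554), and -0.79 (SE 0.35, adjusted p = 0.222) without passages 3 and 4 of mouse_283.

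**Figure D2:**
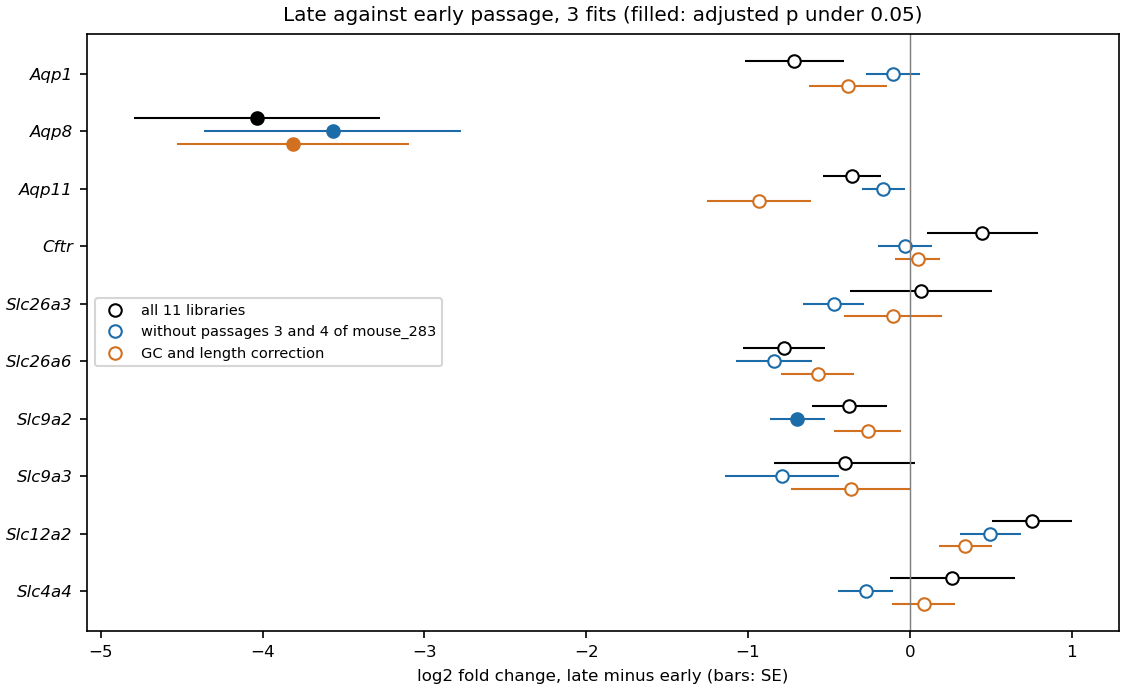
Log2 fold change late minus early (x axis) of the 10 transport genes with bars of 1 SE, in black over all 11 libraries, in blue without passages 3 and 4 of mouse_283 and in orange with the GC and length correction. Filled points passed an adjusted p of 0.05: Aqp8 in all 3 fits and Slc9a2 in the fit without those passages.

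The libraries that stood apart in base composition held the extreme values of several members. The transcripts of Cftr, Slc12a2, Slc26a3 and Slc4a4 have a GC content of 41.2%, 44.2%, 44.7% and 45.9%, and these 4 were lowest in passages 3 and 4 of mouse_283. Aqp1, at 54.9%, was highest in those libraries, but Slc26a6, at 55.4%, was high at passage 3 only, and Slc9a2, at 53.5%, had its lowest early values there. Aqp11, at 44.8%, was not low there, with 58.2 and 36.0 normalised CPM. Without these libraries the highest value was 1.71-fold the lowest for Cftr, in place of 5.45-fold, 2.08-fold for Slc4a4 in place of 5.20-fold and 2.28-fold for Slc12a2 in place of 5.18-fold, whereas for Slc9a2 it was 2.64-fold with or without them.

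**Figure D3:**
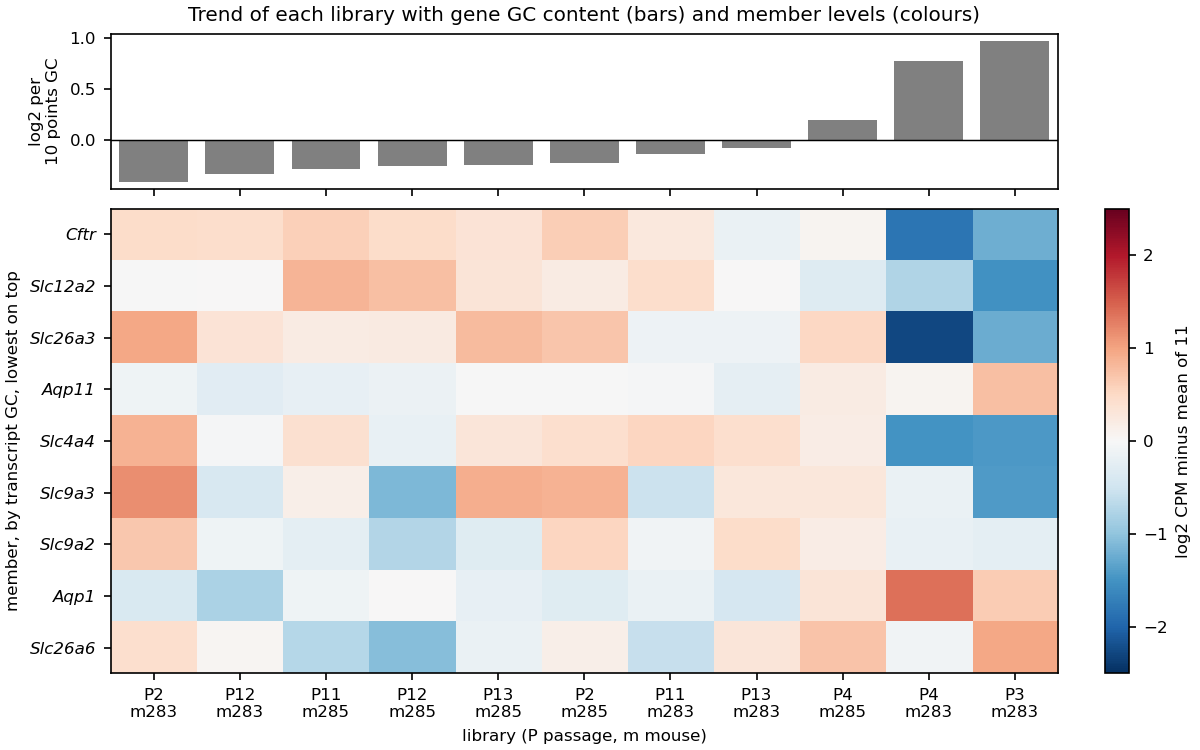
Top, slope of each library's expression with gene GC content (log2 per 10 points, bars), with libraries ordered by it; bottom, log2 CPM of 9 transport genes minus their mean over 11 libraries (colours), ordered by transcript GC content, Aqp8 left out for its libraries without reads. Passages 4 and 3 of mouse_283, at 0.78 and 0.97, show the lowest colours for Cftr, Slc26a3 and Slc4a4.

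Between the animals, no transport gene of the 10 passed the test of mouse_285 against mouse_283 with the stage in the model, beside 11 of all tested genes (0.0776%) and 730 at an unadjusted p under 0.05. Slc12a2 was 0.54 higher in mouse_285 on the log2 scale (SE 0.24, adjusted p = 0.891), the 1 member with an unadjusted p under 0.05. The differences of Cftr and Slc26a3 were 0.54 (SE 0.34) and 0.58 (SE 0.43), or 0.16 (SE 0.16) and 0.15 (SE 0.18) without passages 3 and 4 of mouse_283, and that of Slc12a2 was then 0.34 (SE 0.17). Those of Aqp1 and Aqp11 were -0.10 (SE 0.31) and -0.05 (SE 0.18), which turned to 0.38 and 0.11 without those passages. An interval of 2 SE for Aqp1 ran from -0.71 to 0.51, so a difference in either direction is within it.

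Whether the stage difference itself differed between the animals was tested by the interaction of stage and animal. None of the 10 genes passed, and none of all tested genes did (0%), with 302 at an unadjusted p under 0.05. Aqp8 came nearest, at 4.66 (SE 1.62, unadjusted p = 0.0169, adjusted p = 0.990), a fitted value that rests on the 3 late libraries of mouse_283 without a read. Within mouse_285 alone, with 2 early and 3 late libraries, the test called 0 of the 10 genes and 0% of all genes, and 762 genes had an unadjusted p under 0.05. Without passages 3 and 4 of mouse_283 the calls over all genes came to 317 within mouse_285. That fit left passage 2 as the only early library of mouse_283, so calls within that animal are not given. A slope with passage number within the stages was called for 0 of the 10 genes and for 0% of all genes, with 911 at an unadjusted p under 0.05. The smallest p-values were those of Cftr, at -0.43 per passage (SE 0.17, adjusted p = 0.596), and Slc12a2, at -0.28 (SE 0.12, adjusted p = 0.596), and the slope of the sparse Aqp8 was 0.51 (SE 0.41).

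Levels between genes were compared per length, as RPKM, the normalised CPM per kilobase of the longest annotated transcript. Aqp1 was highest, at 151 ± 78.2 RPKM (SD, n = 11), above Slc12a2 at 85.5 ± 34.0 in 10 of 11 libraries. Slc12a2 was above all genes that follow, 11 of 11 libraries lying above Slc26a3, the next in order. The next 5 genes were Slc26a3 (13.1 ± 5.99), Cftr (12.4 ± 4.69), Slc26a6 (11.3 ± 4.66), Slc4a4 (9.54 ± 3.82) and Slc9a2 (9.36 ± 2.81), whose neighbours in this order differed by less than their spread, with 5 to 7 of 11 libraries in the order of the means. Aqp11 followed at 6.08 ± 1.43 RPKM, below Slc9a2 in 10 of 11 libraries. Slc9a3, at 1.56 ± 0.837 RPKM, and Aqp8, at 0.300 ± 0.352 RPKM, came last.

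**Figure D4:**
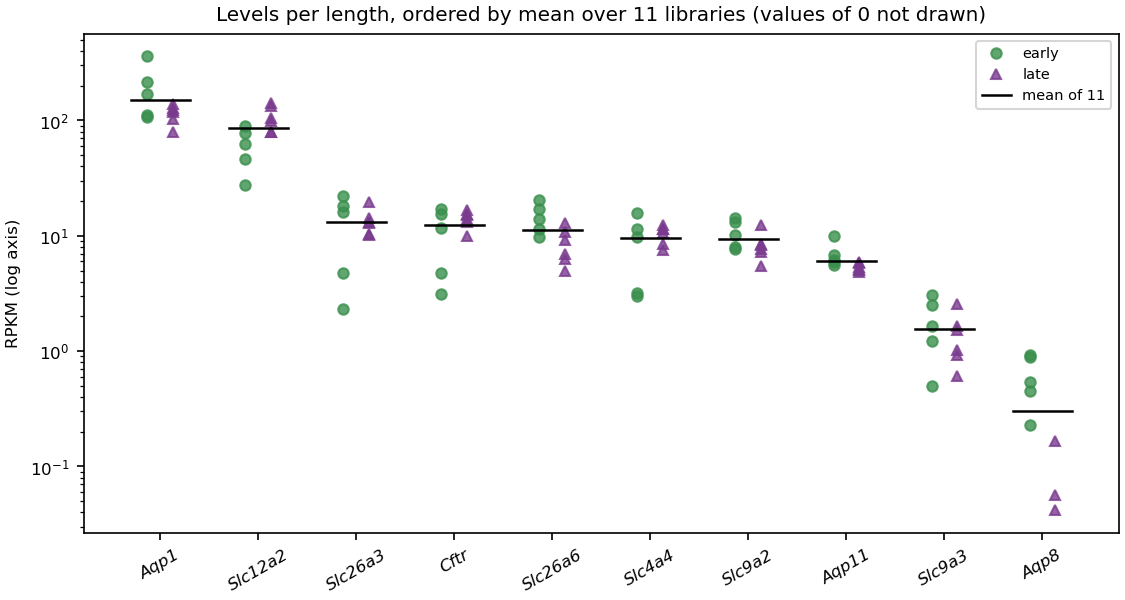
RPKM (log axis) of the 10 transport genes in order of their mean over 11 libraries (black lines), with circles for the 5 early and triangles for the 6 late libraries. Aqp1 and Slc12a2 stand above the rest at means of 151 and 85.5 RPKM, and the 3 late libraries of Aqp8 without reads cannot be drawn on this axis.

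Correlations of log2 CPM over the 11 libraries describe which members varied alike, the libraries sharing 2 animals and their culture lines. Pearson's r was 0.94 for Cftr with Slc26a3, 0.88 for Cftr with Slc4a4 and 0.88 for Slc26a3 with Slc4a4. Over the 9 libraries left without passages 3 and 4 of mouse_283 these values were 0.44, -0.03 and 0.25. The opposite course of Slc12a2 and Slc26a6 had an r of -0.80 over 11 and -0.95 over 9 libraries, and Slc9a2 and Slc9a3 had 0.68 and 0.71. Aqp1 ran opposite to Cftr, at -0.86, over 11 libraries but not over 9, at -0.15.

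Genes most like a member were sought among 9681 genes for the 3 members with the widest spread among those of at least 1 CPM on average, which left out Aqp8. For Slc26a3 these were Gcnt4 (r = 0.98), Sos2 (r = 0.98) and Atxn7 (r = 0.98), and for Cftr Wwp1, Ptbp3 and Jak2 (r = 0.99 each). Cftr had 1438 genes with an r over 0.9 and Slc26a3 had 466. Slc9a3 was unlike these, with 12 such genes, led by Ppp1r12b (r = 0.96), Plekhh1 (r = 0.94) and Tmem170 (r = 0.93). The most alike genes of Cftr and Slc26a3 had GC contents of 38.9% to 46.5%, near those of the 2 members. Likeness was sought over all 11 libraries only, with passages 3 and 4 of mouse_283 among them. The part of these libraries and of GC content in it was not tested.

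The wider transport machinery was read from 96 further genes in 8 lists, of which all were found and 69 were tested. Late against early, 4 of the 69 passed the test, all lower, beside 2.34% of all tested genes, and 41 of the 69 changes were below 0 with a median of -0.21. Between the animals and in the interaction none of the 69 passed. The 4 genes were Guca2b, Pdzd3, Kcnk5 and Slc9a3r2. With the GC correction Clca4b, Slc4a5, Car8 and Pdzk1 were called lower late as well, and Wnk1 was called higher. The summed level of the enterocyte markers given above was lower late as well, though not each marker, and its part in these falls was not tested.

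Of the control of secretion, 17 of 21 genes were tested and 1 fell. Guca2b, which encodes uroguanylin, a ligand of the guanylate cyclase receptor Gucy2c, whose signal opens Cftr, went from 128 ± 40.8 to 48.5 ± 14.1 normalised CPM. Its early libraries ran from 99.4 to 198 and its late ones from 29.7 to 65.2, without overlap, as in 5.72% of all tested genes. The change of Guca2b was -1.48 (SE 0.24, adjusted p = 0.00835). The call held on leaving out each of the 11 libraries in turn, at adjusted p-values of at most 0.0344, and without passages 3 and 4 of mouse_283 the change was -1.19 (adjusted p = 0.000882). The related ligand Guca2a, named here after its values were seen, was at 98.7 ± 42.9 early and 61.6 ± 5.70 late and did not pass (adjusted p = 0.127).

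Of the other sodium/hydrogen exchangers and scaffolds, 12 of 14 genes were tested and 2 fell. Both are PDZ-domain scaffolds known to bind Slc9a3. Pdzd3 went from 36.9 ± 9.49 to 18.3 ± 2.73 normalised CPM, a change of -1.04 (SE 0.19, adjusted p = 0.0119) that was lost without passage 4 of mouse_285 (adjusted p = 0.0586). Slc9a3r2 went from 6.14 ± 2.60 to 2.70 ± 0.428, a change of -1.12 (SE 0.27, adjusted p = 0.0438). That call held on leaving out passage 2 of mouse_283 and was lost for each of the other 10 libraries, at adjusted p-values of 0.0553 to 0.130, and without passages 3 and 4 of mouse_283 the change was -0.68 (adjusted p = 0.124). No sodium/hydrogen exchanger of the list passed.

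Of the chloride channels and basolateral partners, 9 of 13 genes were tested and 1 fell. Kcnk5, a pH-sensitive potassium channel, went from 74.1 ± 15.5 to 42.1 ± 8.02 normalised CPM, a change of -0.84 (SE 0.18, adjusted p = 0.0242). Its early range of 60.2 to 100.1 lay above its late range of 32.1 to 54.8, and 5.72% of all tested genes had no overlap in either direction. The call was lost without passage 11 or 12 of either animal, passage 13 of mouse_283 or passage 4 of mouse_285, at adjusted p-values of 0.0531 to 0.125.

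In the remaining 5 lists no gene passed in the fit over all 11 libraries. Slc4a5 was called lower late without passages 3 and 4 of mouse_283 (-0.77, adjusted p = 0.0294) and with the GC correction (-0.65, adjusted p = 0.0328). Car8 was called lower with the GC correction (-1.59, adjusted p = 0.0282). Those fits called 697 of 14630 and 986 of 13709 genes. Of 8 other aquaporins 3 were tested, and the most abundant, Aqp4, was at 26.9 ± 14.1 early and 31.0 ± 7.13 late, while Aqp2 and Aqp6 had no read. Slc4a2 led the other anion and bicarbonate transporters, 8 of 12 tested, at 164 ± 31.7 and 120 ± 17.4. Car9 led the carbonic anhydrases, 8 of 11 tested, at 397 ± 116 and 294 ± 46.5, and the colonic Car1 had no read. For the epithelial sodium channel and its control, with 7 of 9 tested, Prss8 was at 150.1 ± 58.7 and 102 ± 7.36, and the channel subunits Scnn1b and Scnn1g had at most 3 reads in any library. Slc12a7 led the proton/potassium pumps and other cotransporters, 5 of 8 tested, at 129 ± 19.5 and 94.2 ± 14.2. Over all 11 libraries, adjusted p-values of Aqp4, Slc4a2, Car9, Prss8 and Slc12a7 ran from 0.127 to 0.756.

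**Figure D5:**
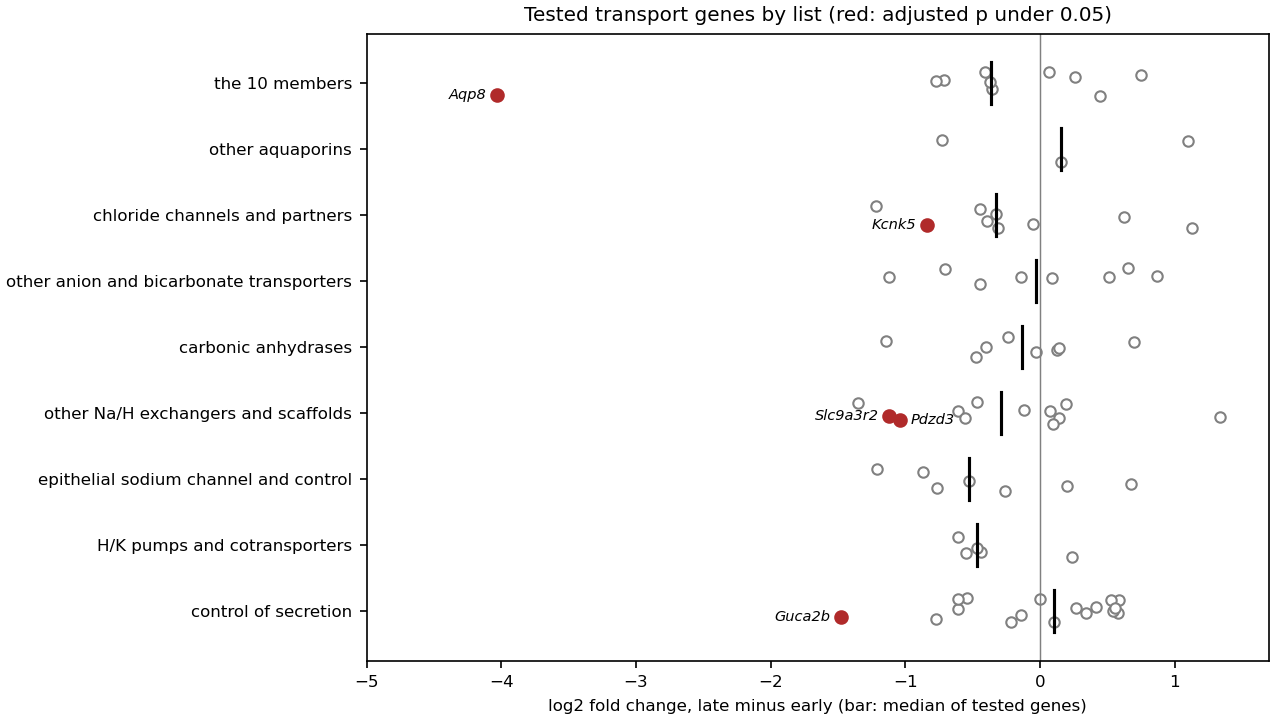
Log2 fold change late minus early (x axis) of each tested gene in the 10 members and the 8 further transport lists, with black bars at the list medians. Red points passed an adjusted p of 0.05: Aqp8 at -4.03 and, at -0.84 to -1.48, Kcnk5, Pdzd3, Slc9a3r2 and Guca2b.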

How the data were processed

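RNA was measured in 11 organoid libraries, grouped by the passage and animal in their titles. The authors deposited raw counts per gene, with an unstranded and 2 stranded columns; Trimmomatic, STAR and build mm9 are named per the submitters' processing notes, and their versions and the annotation release are not given in the sources used here. Each deposited table's name carries a passage number higher by 1 than its title, which was used instead. Strand columns held equal shares, so the unstranded counts were used, without the summary lines (reads in no gene were 3.77% to 11.7%). Of 37310 identifiers, 32620 were matched to a symbol through GENCODE M21, an annotation of a later build that also gave transcript length and GC content. Counting error sets a floor of 3 counts, 0.104 to 0.198 CPM per library. No libraries were duplicates, with a chi-square per degree of freedom of at least 13.96.

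R 4.3.3 was used with edgeR 4.0.16, limma 3.58.1 and DESeq2 1.42.0. Genes left by filterByExpr (14172) were normalised by TMM and tested by edgeR's two-sided quasi-likelihood F test, adjusted by Benjamini-Hochberg, at a threshold of 0.05. The animal was in the model as a block. The SE is the size of the log2 fold change divided by the square root of F, and log2 CPM used a prior count of 2. The procedure was tested on simulated data. Alternatives were DESeq2's size factors and Wald test, no filter, no block, each library left out, passages 3 and 4 of mouse_283 left out, a spline correction for GC content and length (5 degrees of freedom, 96.7% of genes), strand sums and a prior count of 0.5. Members and lists were chosen with earlier results of these data known. All members were named, and from each list up to 4 genes past the threshold or else the most abundant. A list of these and some list members are not reported here. Likeness was sought for the 3 members of widest spread with a mean of at least 1 CPM, among genes of at least 5 CPM.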

Additional observations from a re-analysis of the deposited data

Results flagged for a closer look

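Of 20 groups of libraries checked, 2 for each of the 10 transport genes, 1 held a library that stood apart, and chance alone marks about 1 group in 20. In the late libraries Aqp8 was highest at passage 12 of mouse_285, at 0.250 normalised CPM from 4 reads, with the next library at 0.0838 CPM. This gap was 0.664 of the whole range of the late libraries, above the limit of 0.625 for 6 samples. The fall of Aqp8 was called without this library as well, at -4.80 on the log2 scale (adjusted p = 0.0155, edgeR).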

How the results depend on the processing

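The number of the 10 genes called late against early, 1 in edgeR's test, was 2 in DESeq2's Wald test, 4 with no filter on low counts, 2 without passages 3 and 4 of mouse_283 and 0 to 5 with each library left out. It was 5 without passage 2 of mouse_283 (Aqp1, Aqp8, Cftr, Slc26a6 and Slc12a2) and 0 without passage 4 of mouse_285. Within mouse_283 it was 2 with no filter and 0 to 7 with each library left out, and in the interaction 0 to 5, the highest of each again without passage 2 of mouse_283. Without that library, 7694 of 14052 genes were called within mouse_283 and 2314 in the interaction. With no filter, 1446 of 23493 were called within mouse_283. Leaving out passage 2 left passages 3 and 4, which stood apart in base composition, as the early libraries of mouse_283. Over all genes, the 432 calls late against early became 1343, 1819 and 697 under the first 3 alternatives, 986 with the GC correction, 4872 without passage 2 of mouse_283 and 173 to 435 without another library. The 11 calls between the animals became 126, 207, 107 and 40 under the first 4, and the share of higher calls late against early, 100 of 432, became 1053 of 1819 with no filter and 2596 of 4872 without passage 2 of mouse_283; the cause was not tested.

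Of 170 alternative values of the late against early changes, 152 kept their direction and side of the threshold, 9 passed it newly, 1 fell short and 8 turned: Cftr (-0.030), Slc26a3 (-0.47) and Slc4a4 (-0.27) without passages 3 and 4 of mouse_283, Slc26a3 with the GC correction (-0.10) and, with each library left out, Slc26a3 (-0.19 to 0.70) and Slc9a3 (-0.63 to 0.015). Of 170 between the animals 11 turned: Aqp1 (0.38), Aqp11 (0.11) and Slc4a4 (-0.26) without those passages, Aqp1 with the GC correction (0.040), Aqp8 with no replicate block (-0.19) and, with each library left out, Aqp1 (-0.24 to 0.13), Aqp11 (-0.10 to 0.084) and Slc4a4 (-0.014 to 0.61). With no replicate block the 10 genes still gave 1 call late against early, and all genes 400. Depth limits Aqp8, whose late libraries held at most 4 reads.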
